A study of Mus musculus with 24 samples.

Results

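Interferon response genes were described here as a list of 38 genes chosen by symbol, with no measured value in the rule other than a minimum level. The symbols were chosen with earlier results of these data known, so medians and counts over the list carry no test. The list holds transcription factors of the interferon pathway, sensors of foreign nucleic acid, and the antiviral proteins they induce. Each of the 38 had a value in the wild-type data, and 37 reached the minimum used for testing, a mean of 10 normalized counts over 20 libraries, a level that 12249 of 18091 genes reached. Mx1 was the exception, with a mean of 1.6 and a range of 0 to 9. The study measured RNA in MBMECs, mouse brain microvascular endothelial cells in primary culture, which line the small vessels of the brain and form the blood-brain barrier, and asked how lipid signalling from either face of the cell layer alters their transcripts. MBMECs were prepared from cortex and midbrain of C57B/6J mice, with 12 mice per replicate. They were selected for 48 h in puromycin, a drug that brain endothelial cells export and most other vessel cells do not survive, and seeded on transwell inserts, porous supports that give separate access to the apical (blood) and basal (tissue) side. They were treated for 24 h from 48 h after seeding, and 3 inserts were pooled for each library.

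All 5 wild-type groups held 4 libraries and shared strain, puromycin and culture. They were vehicle, 500 nM of the S1P4 receptor agonist CYM50260 on the apical side, the same dose on the basal side, 50 nM of sphingosine-1-phosphate (S1P) on the apical side, and 50 nM of S1P on the basal side. S1P is a blood-borne lipid that acts through several receptors, of which S1P4 is 1. The submitters describe basal S1P as opening the barrier and the other 3 treatments as tightening it. A sixth group held 4 vehicle-treated libraries labelled as global S1P4 knockout, deposited in a table of their own. The labels number the replicates of each group 1 to 4, and do not say whether libraries of the same number shared mice, so the p-values below measure the spread between these libraries.

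Cells make type I interferons (alpha and beta) when sensors such as RIG-I and MDA5 detect foreign RNA, and lymphocytes make type II interferon (gamma). Type I interferon acts through a complex with Stat2 and Irf9 that binds the interferon-stimulated response element (ISRE), while gamma interferon acts at the gamma-activated sequence (GAS). Many of the induced genes are also expressed at a low tonic level in unstimulated cells, and in endothelium the pathway is known for its effect on barrier tightness.

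The promoters of the list were read first, because they carry the sites through which the pathway is known to act. RefSeq (GRCm38.p6) start sites were available for 30 of the 38 genes, as stretches of 250 bases before to 50 bases after the start. Parp14, Mx1, Iigp1, Zbp1, Rtp4, Usp18, Parp9 and Mx2 are named only. Searched on both strands, the ISRE core (GAAANNGAAA) stood in 14 of 35 promoters of these genes, or 40%, against 3.44% of all 32851 promoters of that length. The GAS letters (TTCNNNGAA) stood in 25.7% of the listed genes' promoters against 8.30% of all, and the core of an NF-kB site (GGGANNTTCC) in 5.71% against 1.47%. By gene, 14 of 30 held an ISRE core, 9 held GAS letters, 2 held the NF-kB core, and 11 held none of the 3. Matches that overlap were counted separately, as in Bst2, where GAS letters run into an ISRE core. A match describes letters only and does not show that a factor binds there.

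The 250 bases before the start are printed for 7 genes, in lower case with matches in capitals, 5′ to 3′ on the gene's strand. Irf1 has GAS letters and no ISRE core. Isg15 has ISRE cores that run into each other, Rsad2 and Stat2 each have 1, Bst2 has both kinds, Ifitm3 has an NF-kB core, and Rnf213 has none. Of these, only the Ifitm3 stretch holds exonic bases of GENCODE M21, the last 26. The Rnf213 stretch ends at 119390098, well before the gene model that was counted, which starts at 119393100. Isg15 and Rsad2 were added after their values had been seen. Positions count back from -1, the last base before the start.
Irf1, chr11:53769764-53770013, strand plus: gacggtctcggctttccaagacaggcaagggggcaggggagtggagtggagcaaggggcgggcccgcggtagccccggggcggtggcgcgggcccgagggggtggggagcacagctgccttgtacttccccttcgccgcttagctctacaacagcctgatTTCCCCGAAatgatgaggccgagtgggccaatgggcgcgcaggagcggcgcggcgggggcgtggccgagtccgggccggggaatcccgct
Stat2, chr10:128270248-128270497, strand plus: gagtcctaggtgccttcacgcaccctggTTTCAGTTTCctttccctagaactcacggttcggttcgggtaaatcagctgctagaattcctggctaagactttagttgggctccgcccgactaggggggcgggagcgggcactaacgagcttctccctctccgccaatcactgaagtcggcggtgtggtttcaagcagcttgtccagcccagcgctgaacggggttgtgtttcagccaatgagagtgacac
Bst2, chr8:71537473-71537722, strand minus: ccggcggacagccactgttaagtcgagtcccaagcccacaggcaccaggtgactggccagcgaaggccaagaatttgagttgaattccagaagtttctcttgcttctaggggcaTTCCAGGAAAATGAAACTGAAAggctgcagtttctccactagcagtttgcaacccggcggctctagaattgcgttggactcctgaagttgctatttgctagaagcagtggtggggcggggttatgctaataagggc
Isg15, chr4:156200819-156201068, strand minus: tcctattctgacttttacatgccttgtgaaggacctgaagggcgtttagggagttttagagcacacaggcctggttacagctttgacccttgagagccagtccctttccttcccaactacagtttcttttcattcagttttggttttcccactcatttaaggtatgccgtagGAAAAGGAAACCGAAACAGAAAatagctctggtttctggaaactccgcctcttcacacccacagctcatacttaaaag
Rsad2, chr12:26456453-26456702, strand minus: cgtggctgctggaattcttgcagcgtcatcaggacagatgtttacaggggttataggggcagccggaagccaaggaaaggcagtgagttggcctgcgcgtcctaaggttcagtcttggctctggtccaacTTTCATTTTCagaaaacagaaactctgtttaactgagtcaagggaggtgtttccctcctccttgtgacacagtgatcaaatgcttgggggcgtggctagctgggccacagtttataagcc
Ifitm3, chr7:141010745-141010994, strand minus: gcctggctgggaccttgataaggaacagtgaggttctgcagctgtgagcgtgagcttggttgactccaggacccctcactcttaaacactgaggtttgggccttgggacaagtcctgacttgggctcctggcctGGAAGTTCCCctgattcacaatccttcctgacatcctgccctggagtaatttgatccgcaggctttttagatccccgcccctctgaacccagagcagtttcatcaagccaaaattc
Rnf213, chr11:119389849-119390098, strand plus: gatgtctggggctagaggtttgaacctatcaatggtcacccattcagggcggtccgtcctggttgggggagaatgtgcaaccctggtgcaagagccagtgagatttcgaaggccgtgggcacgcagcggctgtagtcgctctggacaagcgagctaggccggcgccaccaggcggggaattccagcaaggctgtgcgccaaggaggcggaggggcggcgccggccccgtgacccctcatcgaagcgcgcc
The first base of the match lies at -90 in Irf1, -222 in Stat2, -120 in Rsad2 and -116 in Ifitm3. Bst2 has GAS letters from -136 and ISRE cores from -130 and -124, and Isg15 has ISRE cores from -78, -72 and -66. In Ifitm3 the ISRE cores and the GAS letters lie after the start, beyond the printed stretch. Genes with and without an ISRE core did not separate by how much they varied across the 20 libraries. The median SD of the log2 level was 0.24 for the 14 genes with a core and 0.25 for the 16 without. Their median log2 differences between basal S1P and vehicle were -0.14 and -0.23.

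Wild-type totals ran from 4491592 to 4720877 normalized counts. The targeted receptor gene S1pr4 read 113 to 190 in the wild-type libraries and 250 to 349 in those labelled knockout, whose totals were 17361639 to 17833560, so these counts do not separate the genotypes by presence or absence of reads. Endothelial identity was checked on 14 markers, all of which were tested, with sums of 24171 to 29729 per library. Microglia and macrophage markers were low: 9 of 11 had values, 1 of them (Cd68) reached the minimum, and sums ran from 35 to 122, with means of 0.900 for Cx3cr1 and 1.10 for Tmem119. Pericyte marker sums fell with the replicate number, from 3134 in vehicle replicate 1 to 347 in vehicle replicate 4. Some libraries stood apart from the others of their number: apical S1P 4 (1067, the others 304 to 437), apical S1P 3 (2015, the others 1131 to 1420) and basal S1P 2 (1834, the others 2421 to 2523). Xist, the RNA that silences an X chromosome in females, also followed the number (0 or 1 in every replicate 1 library), except in 4 libraries that differed from the others of their number: apical agonist 2 (1382, the others 2251 to 2555 apart from basal S1P 2), basal S1P 2 (552), apical S1P 3 (525) and apical S1P 4 (1417, the others 173 to 244).

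Over the 20 wild-type libraries, treated and untreated, nearly the whole list was expressed above the minimum. Per exonic kilobase, which makes genes of different length comparable, the 37 genes had a median level of 69.0 normalized counts against 54.1 for all genes tested. Ifitm3 was highest at 592 per kilobase, then Bst2 at 392, Lgals3bp at 237, Ifitm2 at 210 and Ddx58 at 151. The lowest were Mx2 at 3.89, Zbp1 at 5.45 and Herc6 at 15.4. In the wild-type data no gene exceeded 758 per kilobase, while the table of libraries labelled knockout reached 125769, so the levels of abundant genes look capped in the former. Ifitm3, Bst2, Lgals3bp and Ifitm2 lie at the 99.8th, 99th, 94.8th and 93.0th percentile of level per kilobase. The effect of such a cap on their differences was not tested.

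The regulators were Irf1, Irf9, Stat2, Irf7 and Usp18. Irf1 is a transcription factor that gamma interferon induces through its GAS site, the one printed above (chromosome 11, 53770014 to 53778374). Irf1 read 537, 489, 519 and 494 normalized counts in vehicle replicates 1 to 4, 504, 475, 501 and 535 with apical agonist, 471, 467, 517 and 530 with basal agonist, then 544, 489, 453 and 509 with apical S1P and 465, 398, 448 and 423 with basal S1P. Apart from basal S1P, the group means lay between 496 and 510, while the 4 basal S1P libraries, at 398 to 465, were below all 4 vehicle libraries. Stat2 and Irf9 belong to the complex that binds the ISRE. Stat2 read 465, 433, 304 and 361 normalized counts in vehicle replicates 1 to 4, 485, 417, 251 and 553 with apical agonist, 446, 473, 312 and 336 with basal agonist, then 401, 449, 280 and 281 with apical S1P and 425, 277, 320 and 365 with basal S1P. Its 5 groups overlapped, and apical agonist alone spanned 251 to 553. Irf9 read 382, 335, 341 and 350 normalized counts in vehicle replicates 1 to 4, 378, 337, 370 and 465 with apical agonist, 349, 319, 319 and 353 with basal agonist, then 321, 311, 284 and 352 with apical S1P and 326, 290, 294 and 384 with basal S1P. The highest Irf9 value, 465, was in apical agonist replicate 4. Irf7, which drives the amplifying wave of interferon alpha, had a mean of 141 and a range of 93 to 305. Usp18, which removes Isg15 from proteins and damps the type I receptor, had a mean of 136 and a range of 96 to 270.

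The sensors and RNA-binding enzymes were Ddx58, Adar, Ifih1, Eif2ak2 and Zbp1. Ddx58 encodes RIG-I, the sensor of short viral RNA (chromosome 4, 40203773 to 40239828), and was the steadiest of the 37 genes, with an SD of 0.08 on the log2 scale over 20 libraries. Ddx58 read 1105, 1035, 1060 and 1124 normalized counts in vehicle replicates 1 to 4, 1169, 1075, 1041 and 1177 with apical agonist, 1047, 1021, 1032 and 1131 with basal agonist, then 1108, 952, 1005 and 1086 with apical S1P and 1012, 951, 1045 and 1051 with basal S1P. Adar, which edits adenosine in double-stranded RNA and so keeps self RNA from the sensors, read 806, 750, 674 and 715 normalized counts in vehicle replicates 1 to 4, 783, 710, 657 and 854 with apical agonist, 699, 790, 667 and 680 with basal agonist, then 819, 724, 627 and 660 with apical S1P and 706, 550, 644 and 692 with basal S1P. The lowest Adar library, 550, was basal S1P replicate 2, and the groups overlapped. Zbp1, a sensor of left-handed nucleic acid that can trigger cell death, had a mean of 19.2, near the minimum for testing. Zbp1 read 17, 17, 25 and 26 normalized counts in vehicle replicates 1 to 4, 22, 12, 17 and 45 with apical agonist, 14, 37, 15 and 14 with basal agonist, then 22, 18, 13 and 23 with apical S1P and 11, 3, 19 and 15 with basal S1P. The highest Zbp1 value, 45, was in apical agonist replicate 4 and the lowest, 3, in basal S1P replicate 2. Ifih1, which encodes the sensor of long RNA MDA5, had a mean of 518 and a range of 383 to 735. Eif2ak2, the RNA-activated kinase PKR that halts translation, had a mean of 370 and a range of 243 to 492.

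Among the 12 antiviral effectors above the minimum, the most variable gene was Mx2, with an SD of 0.99 on the log2 scale, followed by Rsad2 at 0.93, Ifit2 at 0.67, Ifit1 at 0.61 and Ifit3 at 0.55. Rsad2 encodes viperin, which makes a chain-terminating nucleotide, and lies beside Cmpk2, a mitochondrial nucleotide kinase, on chromosome 12 (26442746 to 26456452 and 26469204 to 26479837). Rsad2 read 194, 183, 143 and 305 normalized counts in vehicle replicates 1 to 4, 242, 96, 103 and 507 with apical agonist, 202, 190, 109 and 209 with basal agonist, then 184, 130, 36 and 81 with apical S1P and 162, 44, 86 and 341 with basal S1P. Its range was 14.1-fold, from 36 in apical S1P replicate 3 to 507 in apical agonist replicate 4, and apical agonist alone spanned 96 to 507. Cmpk2 read 138, 149, 177 and 248 normalized counts in vehicle replicates 1 to 4, 169, 144, 131 and 387 with apical agonist, 155, 123, 141 and 173 with basal agonist, then 158, 126, 72 and 141 with apical S1P and 150, 116, 144 and 250 with basal S1P. Both neighbours were lowest in apical S1P replicate 3 and highest in apical agonist replicate 4. Mx2, a dynamin-like GTPase, read 19, 18, 8 and 18 normalized counts in vehicle replicates 1 to 4, 21, 8, 6 and 59 with apical agonist, 21, 14, 11 and 7 with basal agonist, then 11, 18, 2 and 5 with apical S1P and 11, 3, 6 and 15 with basal S1P. Mx2 reached 59 in 1 library and 21 at most in the others. Mx1, its close relative, carries a disabling deletion in most laboratory mouse strains and was the gene left untested.

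Samhd1, which breaks down the building blocks of DNA, read 601, 607, 559 and 718 normalized counts in vehicle replicates 1 to 4, 625, 558, 535 and 752 with apical agonist, 594, 581, 538 and 708 with basal agonist, then 634, 583, 504 and 544 with apical S1P and 560, 440, 529 and 603 with basal S1P. Samhd1 was lowest in basal S1P replicate 2 and highest in apical agonist replicate 4. Bst2 (tetherin) holds budding virus at the cell surface, and Ifitm2 and Ifitm3 block entry of virus through membranes. Bst2 read 294, 330, 363 and 348 normalized counts in vehicle replicates 1 to 4, 346, 368, 405 and 353 with apical agonist, 329, 348, 391 and 356 with basal agonist, then 325, 353, 373 and 382 with apical S1P and 308, 405, 386 and 321 with basal S1P. Ifitm3 read 352, 353, 394 and 414 normalized counts in vehicle replicates 1 to 4, 425, 408, 462 and 399 with apical agonist, 368, 367, 447 and 430 with basal agonist, then 378, 377, 400 and 447 with apical S1P and 351, 435, 417 and 403 with basal S1P. Ifitm2 read 123, 116, 133 and 146 normalized counts in vehicle replicates 1 to 4, 144, 148, 157 and 135 with apical agonist, 129, 123, 153 and 157 with basal agonist, then 129, 137, 145 and 139 with apical S1P and 117, 160, 142 and 119 with basal S1P. None of these 3 genes was at its highest in apical agonist replicate 4, in contrast to Rsad2, Cmpk2, Mx2 and Samhd1. The remaining effectors were Ifit1, Ifit2 and Ifit3, which bind foreign RNA ends, Isg15, a ubiquitin-like tag, and Oasl2, a relative of the enzymes that activate RNase L. Their means were 138, 134, 130, 104 and 365, and their ranges 54 to 357, 62 to 398, 62 to 297, 83 to 183 and 221 to 577. Ifit genes, Ifitm2 and Ifitm3, and Mx1 and Mx2 are related in sequence, and how shared reads were assigned to them is not stated in the labels.

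The enzymes of ubiquitin and ADP-ribose included Rnf213, a giant ubiquitin ligase of vessels and the gene with the most counts of the list, at a mean of 2152, or 127 per kilobase. Rnf213 read 2431, 2099, 1816 and 2474 normalized counts in vehicle replicates 1 to 4, 2684, 2131, 1663 and 3034 with apical agonist, 2176, 2585, 1810 and 2268 with basal agonist, then 2163, 2275, 1455 and 1931 with apical S1P and 2143, 1556, 1845 and 2498 with basal S1P. It was lowest in apical S1P replicate 3 and highest in apical agonist replicate 4. Parp14, which transfers ADP-ribose, read 983, 918, 736 and 952 normalized counts in vehicle replicates 1 to 4, 903, 809, 559 and 1184 with apical agonist, 800, 888, 612 and 898 with basal agonist, then 923, 855, 625 and 669 with apical S1P and 781, 511, 717 and 821 with basal S1P. Trim25, the ligase that activates RIG-I, read 829, 760, 709 and 764 normalized counts in vehicle replicates 1 to 4, 869, 805, 745 and 890 with apical agonist, 799, 813, 743 and 773 with basal agonist, then 841, 768, 708 and 767 with apical S1P and 790, 733, 680 and 763 with basal S1P. Trim25 varied little, with an SD of 0.10 on the log2 scale. Trim21, a ligase that binds antibody inside cells, read 195, 200, 182 and 175 normalized counts in vehicle replicates 1 to 4, 156, 162, 136 and 194 with apical agonist, 183, 173, 161 and 167 with basal agonist, then 194, 207, 131 and 160 with apical S1P and 173, 152, 125 and 162 with basal S1P. All 4 basal S1P libraries of Trim21 lay below the lowest vehicle library, 175, and so did 3 of 4 apical agonist and 3 of 4 basal agonist libraries. Parp9 and Dtx3l act as a pair, had means of 448 and 500, and ranged from 356 to 606 and from 363 to 614. Their gene models overlap on opposite strands of chromosome 16 (35938470 to 35972605 and 35926511 to 35939151), and the labels do not state whether counting used strand. Herc6, the mouse ligase that attaches Isg15, had a mean of 143 and a range of 90 to 219.

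The immunity-related GTPases attack vacuoles that hold parasites and bacteria. Irgm1 read 443, 393, 438 and 486 normalized counts in vehicle replicates 1 to 4, 461, 448, 447 and 584 with apical agonist, 429, 424, 436 and 487 with basal agonist, then 424, 369, 510 and 483 with apical S1P and 407, 454, 404 and 493 with basal S1P. Igtp read 216, 216, 211 and 258 normalized counts in vehicle replicates 1 to 4, 214, 222, 228 and 342 with apical agonist, 227, 196, 178 and 241 with basal agonist, then 184, 205, 197 and 209 with apical S1P and 193, 207, 190 and 247 with basal S1P. Igtp and Irgm1 were each highest in apical agonist replicate 4, at 342 and 584. Iigp1 read 255, 232, 155 and 246 normalized counts in vehicle replicates 1 to 4, 292, 223, 179 and 324 with apical agonist, 277, 218, 168 and 220 with basal agonist, then 248, 205, 200 and 158 with apical S1P and 188, 137, 115 and 181 with basal S1P. Iigp1 was 188 or lower in every basal S1P library, while the vehicle group ran from 155 to 255, so the 2 groups overlapped in vehicle replicate 3. Of the other genes, Lgals3bp, a secreted glycoprotein, read 657, 626, 705 and 785 normalized counts in vehicle replicates 1 to 4, 659, 569, 687 and 822 with apical agonist, 627, 640, 679 and 802 with basal agonist, then 624, 590, 629 and 684 with apical S1P and 632, 622, 687 and 755 with basal S1P. Ifi35, an adaptor that modulates RIG-I signalling, read 229, 223, 250 and 268 normalized counts in vehicle replicates 1 to 4, 240, 255, 284 and 278 with apical agonist, 223, 218, 249 and 235 with basal agonist, then 227, 232, 266 and 266 with apical S1P and 225, 289, 254 and 246 with basal S1P. Ifi35 ranged from 218 to 289, with basal S1P replicate 2 the highest. Ifi44, Xaf1 (a partner of an apoptosis inhibitor) and Rtp4 (a chaperone of receptors) had means of 212, 187 and 147 and ranges of 130 to 388, 119 to 236 and 117 to 241.

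**Figure D1:**
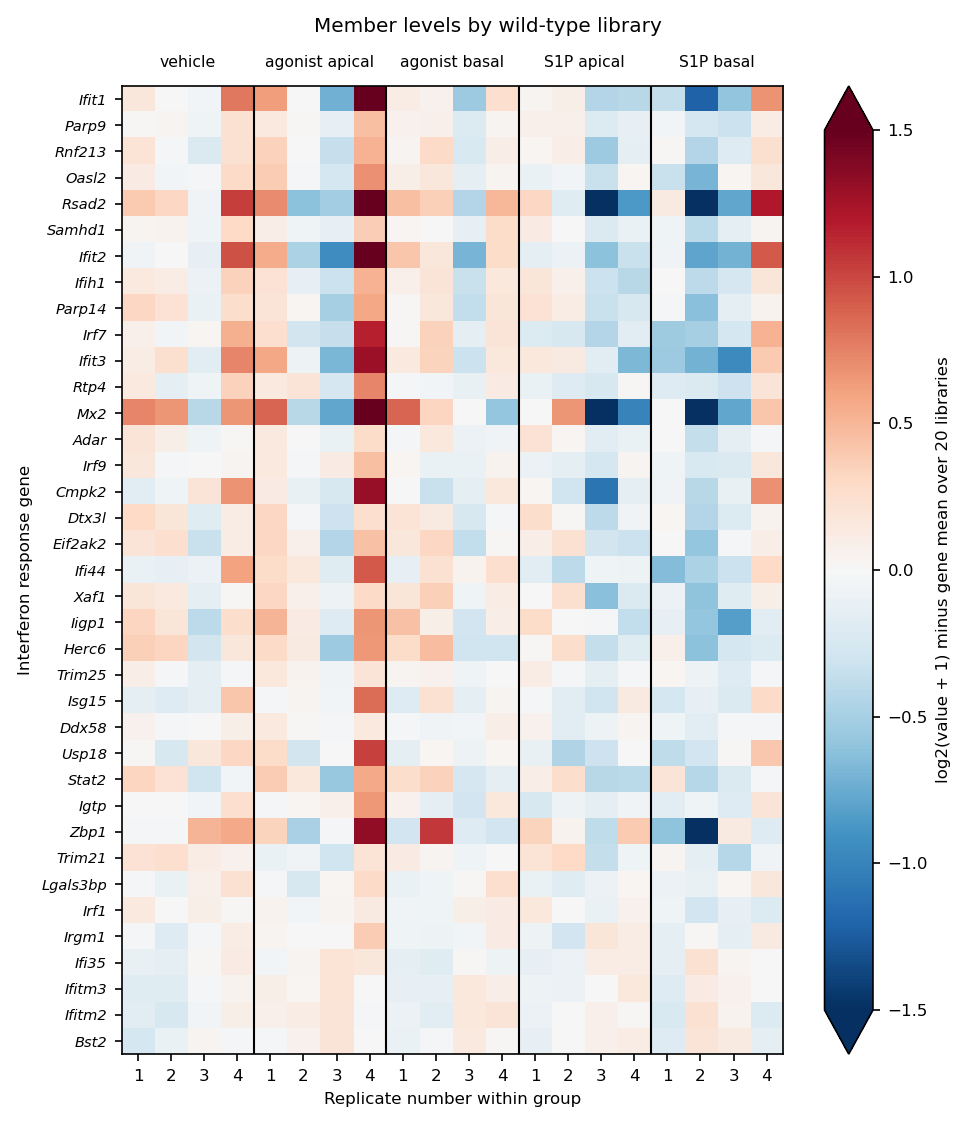
Levels of the 37 genes (rows, ordered by their correlation with the median of the others) in 20 wild-type libraries (columns, by group and replicate number); colour gives log2(value + 1) minus the gene's mean, with values beyond 1.5 at the end of the scale. Apical agonist replicate 4 is the highest library in 29 of 37 rows, and the 4 bottom rows, Ifi35, Ifitm3, Ifitm2 and Bst2, run against the rest.

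The list varied together from library to library. The median SD of the log2 level over 20 libraries was 0.27 for the 37 genes and 0.18 for all genes tested. Replicate number took a median of 42.2% of a gene's variance (all genes 42.9%), and group took 22.3% (all genes 13.9%). Means of 5 groups over 20 libraries take up part of the variance even without a treatment effect, and these shares carry no test. Apical agonist replicate 4 was the highest of 20 libraries in 29 of the 37 genes, or 78.4%, and in 4.09% of all genes tested. Basal S1P replicate 2 was the lowest in 11 of 37, or 29.7%, and in 11.4% of all genes, apical S1P replicate 3 in 7, and basal S1P replicate 3 in 6. The median pairwise Pearson correlation between the genes over the 20 libraries was 0.60, and 0.47 once group means and replicate-number means had been removed, against -0.00156 and -0.000394 for all genes. These correlations describe libraries that share depth scaling and culture, and carry no test. Ifit1 followed the median of the other 36 genes most closely, with r = 0.96, then Parp9 with 0.94 and Rnf213 with 0.92. In apical agonist replicate 4 the microglia and macrophage marker sum was 41, against 35 to 42 in the other replicate 4 libraries, and the pericyte sum was 437, against 304 to 1067.

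The median level of the 37 genes in a library, as log2 relative to each gene's mean over the 20 libraries, summarised this pattern. Vehicle replicates 1 to 4 stood at 0.11, -0.01, -0.06 and 0.23. Apical agonist stood at 0.19, 0.01, -0.18 and 0.53, and basal agonist at 0.03, 0.09, -0.14 and 0.10. Apical S1P stood at 0.03, 0.00, -0.28 and -0.08, and basal S1P at -0.07, -0.41, -0.19 and 0.11. The means ± SD (n = 4) were 0.07 ± 0.13 for vehicle, 0.14 ± 0.30 for apical agonist, 0.02 ± 0.11 for basal agonist, -0.08 ± 0.14 for apical S1P and -0.14 ± 0.22 for basal S1P. All 5 groups overlapped, and replicate 3 was the lowest library in vehicle, in both agonist groups and in apical S1P.

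**Figure D2:**
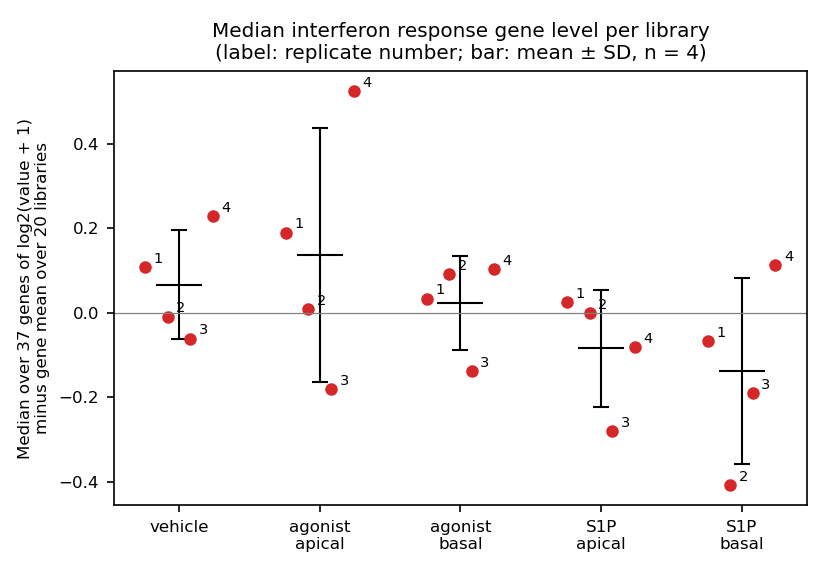
Median over the 37 genes of log2(value + 1) minus the gene mean (vertical axis) for each wild-type library, by group (horizontal axis); points are libraries labelled by replicate number, and bars are mean ± SD, n = 4. Apical agonist replicate 4, at 0.53, is the highest and basal S1P replicate 2, at -0.41, the lowest.

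Bst2, Ifitm2, Ifitm3 and Ifi35 did not follow the block. Their correlations with the median of the others were -0.51, -0.33, -0.26 and -0.22, while the other 33 genes ranged from 0.40 (Irgm1) to 0.96. The same 4 genes correlated with the most abundant transcripts of the data. With the median of the 100 genes outside the list that had the most counts per kilobase, Ifitm3 correlated at 0.93, Ifitm2 at 0.86, Bst2 at 0.84 and Ifi35 at 0.76, while Rsad2 correlated at -0.47 and Ifit1 at -0.36. Lgals3bp, with more counts per kilobase than Ifitm2 and Ifi35, correlated at 0.25. The median of those 100 genes ran from -0.19 in vehicle replicate 1 to 0.15 in apical agonist replicate 3. The 4 genes were singled out after their values were seen, and the part of the capped levels in their pattern was not tested.

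**Figure D3:**
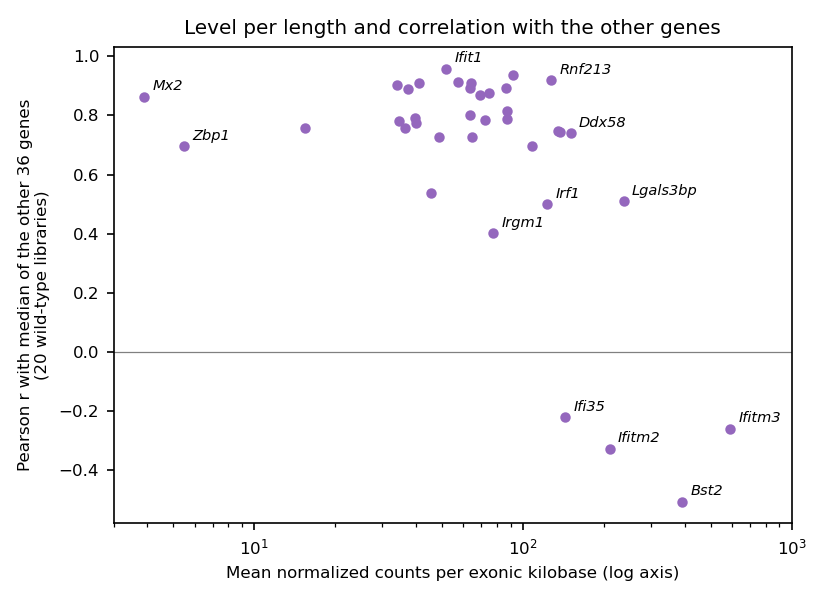
Mean level per exonic kilobase (horizontal, log axis) and Pearson r with the median of the other 36 genes over 20 wild-type libraries (vertical); each point is a gene. The 4 genes below 0 include Ifitm3 at 592, Bst2 at 392 and Ifitm2 at 210 per kilobase, and Lgals3bp, at 237, lies above 0.

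Treatments were compared with limma on log2(value + 1), fitted to all 12249 genes without a term for replicate number. A difference is therefore a log2 difference on that scale, with its standard error. P-values were adjusted over all 12249 genes by Benjamini-Hochberg, with a threshold of 0.05. In none of the 8 comparisons did a gene of the list pass, and the smallest adjusted p was 0.344. The 4 comparisons with vehicle share the same vehicle libraries.

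Basal S1P, the treatment described as opening the barrier, was the comparison with vehicle in which most of the list stood lower. Of the 37 genes, 33 were lower and 4 higher than vehicle, with a median difference of -0.20, while over all genes 50.0% were lower and the median was 0.000249. The 4 higher genes were Bst2, Ifitm2, Ifitm3 and Ifi35, the same that ran against the block. All 5 regulators, all 5 sensors, all 7 ubiquitin and ADP-ribose enzymes and all 3 GTPases were lower, as were 9 of 12 effectors. No gene of the list was called, against 3 of all genes, or 0.0245%. At an unadjusted p under 0.05 there were 4, all lower (Irf1, Iigp1, Trim21 and Zbp1), against 5.22% of all genes.

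Irf1 had the smallest p, with a log2 difference of -0.23 ± 0.07 (SE, 95% interval -0.38 to -0.09), an unadjusted limma p of 0.00275 and an adjusted p of 0.731. Its mean was 434 ± 29.3 (SD, n = 4) with basal S1P and 510 ± 22.4 with vehicle. Iigp1 differed by -0.52 ± 0.21 (limma adjusted p = 0.756), from 222 ± 45.7 to 155 ± 35.1. Trim21 differed by -0.30 ± 0.13 (limma adjusted p = 0.756), from 188 ± 11.5 to 153 ± 20.5. Zbp1 had the largest difference, -0.97 ± 0.46 (limma adjusted p = 0.756), on counts of 3 to 26. In 2 genes, Irf1 and Trim21, each of the 4 basal S1P values was under the lowest vehicle value, and 1.08% of all genes did so. Without basal S1P replicate 2 the median difference of the list was -0.13 in place of -0.20.

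Over all genes tested, deviations from the group mean in same-numbered vehicle and basal S1P libraries correlated at 0.81, 0.029, 0.58 and 0.68 in replicates 1 to 4. Replicate 2, which has the largest difference below, was therefore not shown to pair. Set against the vehicle library of the same number, basal S1P stood lower in all 4 replicates, the unpaired replicate 2 included. The medians were -0.19, -0.43, -0.12 and -0.11, with 34, 31, 28 and 29 of the 37 genes lower. No test was run on these same-number differences. Apical S1P stood lower by -0.06, -0.05, -0.16 and -0.31. The larger differences, in replicates 3 and 4, are in libraries whose Xist (525 and 1417) differed from same-numbered vehicle (1063 and 190). Xist also differed in apical agonist replicate 2 (1382, vehicle 2251), so pairing with vehicle stays uncertain in these libraries. Apical agonist differed by 0.12, -0.05, -0.11 and 0.31, and basal agonist by -0.05, 0.07, -0.05 and -0.13, so both agonist groups held libraries on either side of vehicle. Markers of other vessel cells differed in direction with basal S1P. Of the pericyte markers tested 7 of 9 were lower than vehicle, with a median difference of -0.37 (SEs of 0.54 to 1.04) and sums of 2586, 1834, 1209 and 337 against 3134, 2475, 1420 and 347. Of the fibroblast markers 3 of 4 were lower, with a median of -0.34, and of the smooth muscle markers 3 of 4 were higher, with a median of 0.16. In such bulk RNA, fewer cells of a type and less RNA per cell cannot be told apart, and the part of these cells in the interferon list was not tested.

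**Figure D4:**
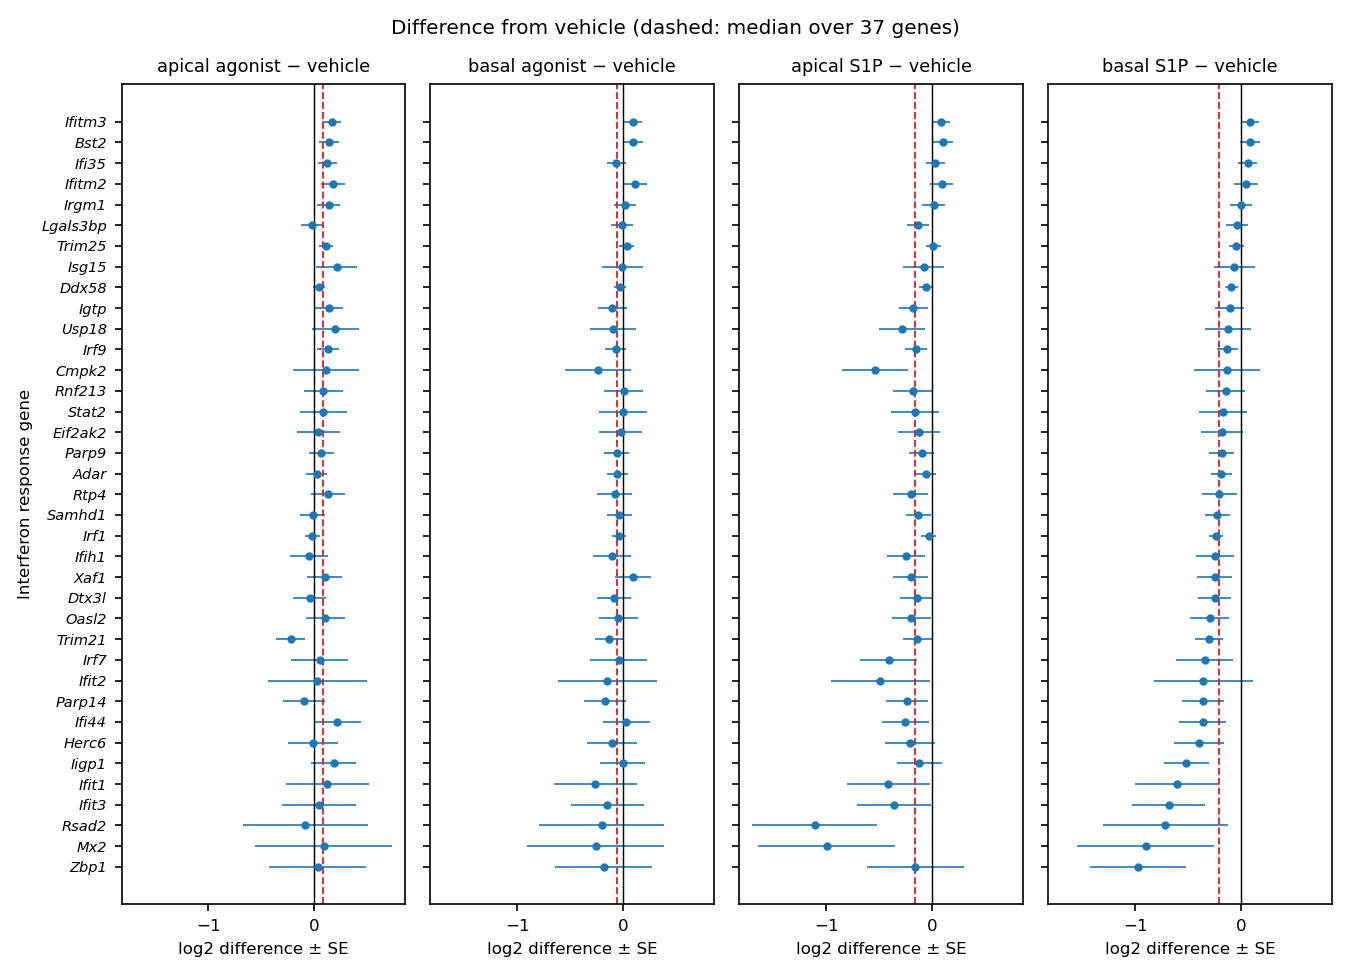
Log2 difference from vehicle ± SE (horizontal) for each of the 37 genes (rows, ordered by the basal S1P difference) in the 4 treatments; the dashed line is the median over the list. It lies at 0.09 for apical agonist, -0.05 for basal agonist, -0.16 for apical S1P and -0.20 for basal S1P.

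Most of the list stood lower with apical S1P, at the same 50 nM, as well. Of the 37 genes, 31 were lower, with a median difference of -0.16, against 50.2% of all genes and a median of -0.000662. The 3 with the smallest p were Rsad2 (-1.11 ± 0.59), Cmpk2 (-0.54 ± 0.31) and Mx2 (-0.996 ± 0.65), each at a limma adjusted p of 1.00. Rsad2 means were 108 ± 63.7 with apical S1P and 206 ± 69.4 with vehicle (SD, n = 4), and the groups overlapped. Called genes were 0 of 37 and 0% of all genes, and at an unadjusted p under 0.05 there were again 0 of 37, against 0.996% of all. Irf7 and Igtp were lower in all 4 apical S1P libraries than in any vehicle library, as were 0.718% of all genes. The size rested on few libraries: the median was -0.08 without apical S1P replicate 3, and -0.06, with 14 genes higher and 23 lower, without the 4 libraries whose Xist differed. Pericyte markers stood the other way here, with 8 of 9 higher than vehicle and a median of 0.55 (SEs of 0.54 to 1.04). Their sums were 3152, 2523, 2015 and 1067 in apical S1P replicates 1 to 4, against 3134, 2475, 1420 and 347 in vehicle. The excess lay mainly in replicates 3 and 4, which are among the 4 libraries whose Xist differed.

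The S1P4 agonist, at 500 nM, gave smaller and opposite medians on the 2 sides. With apical agonist 28 of 37 genes were higher than vehicle, with a median of 0.09 (all genes -0.00424), and 10 of 12 effectors were among them. Ifitm3 came first, at 0.16 ± 0.09, from 378 ± 30.8 to 424 ± 27.8 (SD, n = 4), then Trim21, at -0.22 ± 0.13, and Trim25, at 0.11 ± 0.07, each at a limma adjusted p of 1.00. Neither the list (0 of 37) nor all genes (0%) held a call, and at an unadjusted p under 0.05 the list held 0 against 1.09% of all genes. The direction rested on 1 library: without apical agonist replicate 4 the median was -0.06.

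With basal agonist 28 of 37 genes were lower than vehicle, with a median of -0.05 (all genes 0.00453). Ifitm2 (0.11 ± 0.11), Ifitm3 (0.09 ± 0.09) and Bst2 (0.09 ± 0.09), which were higher, had the smallest p, each at a limma adjusted p of 1.00. Calls were again 0 of 37 and 0% of all genes, and unadjusted p under 0.05 was met by 0 of 37 and 0.31% of all genes. Without basal agonist replicate 3 the median was 0.01.

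**Figure D5:**
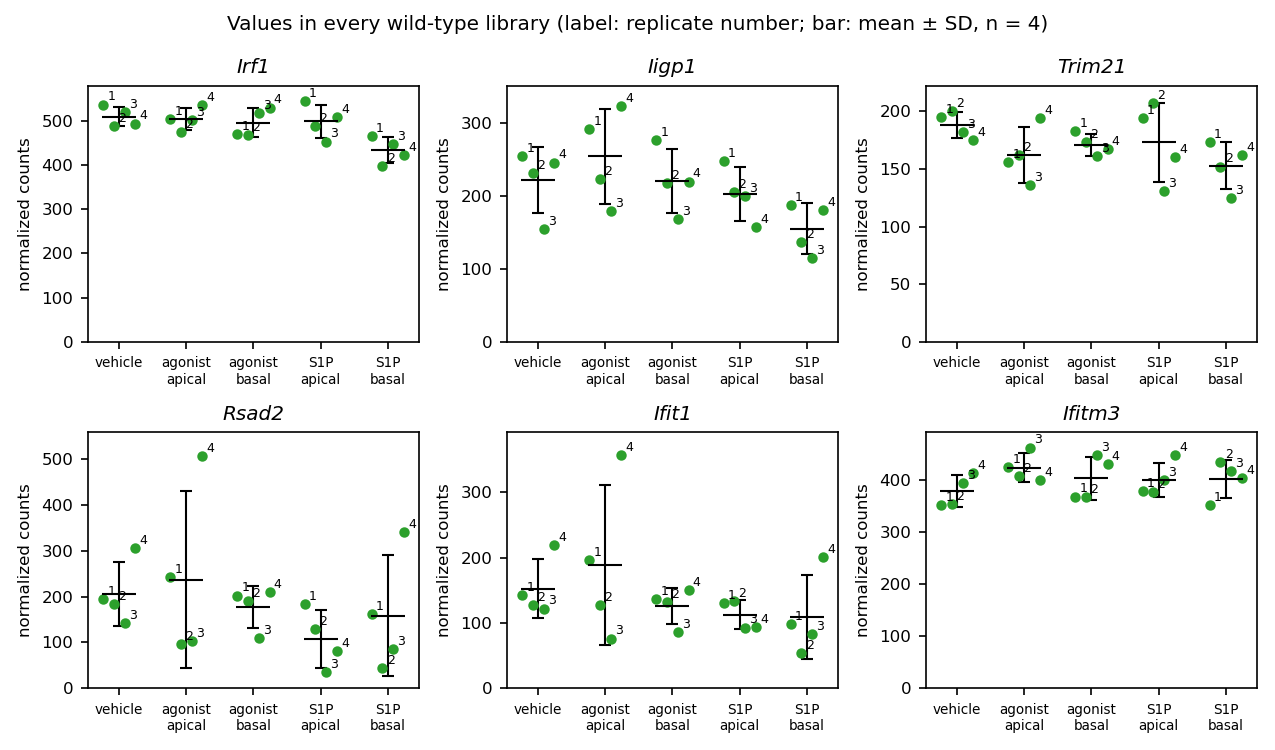
Normalized counts (vertical axis, from 0) of 6 genes in every wild-type library by group (horizontal axis); points are libraries labelled by replicate number, bars are mean ± SD, n = 4. Irf1 is 398 to 465 with basal S1P and 453 or more in every other library, while Rsad2 and Ifit1 reach 507 and 357 in apical agonist replicate 4.

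The side of treatment was compared next. For S1P at 50 nM, basal against apical, 23 of 37 genes were lower on the basal side with a median of -0.03 (all genes 0.000738), and the median was 0.03 without basal S1P replicate 2 and -0.08 without the 4 libraries whose Xist differed. Irf1 had the smallest p, at -0.20 ± 0.07 (limma adjusted p = 0.945), from 499 ± 38.0 to 434 ± 29.3 (SD, n = 4). Iigp1 (-0.39 ± 0.21) and Zbp1 (-0.81 ± 0.46) followed, each at a limma adjusted p of 0.999. Called genes were 0 of 37, against 0.0245% of all, and 1 of 37 (Irf1) had an unadjusted p under 0.05, against 4.01% of all. For the agonist at 500 nM, 35 of 37 genes were lower on the basal side, with a median of -0.10 (all genes 0.000602). Ifi35 came first, at -0.19 ± 0.09, from 264 ± 20.4 to 231 ± 13.8 (SD, n = 4), then Irf9 at -0.20 ± 0.10 and Igtp at -0.24 ± 0.13, each at a limma adjusted p of 1.00. Calls were 0 of 37 and 0% of all, with 1 of 37 (Ifi35) and 0.498% of all at an unadjusted p under 0.05. Here too 1 library set the direction, since the median was 0.01 without apical agonist replicate 4. Without the 4 libraries whose Xist differed it was -0.16, with 36 of 37 genes lower.

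Whether the side mattered differently for the 2 compounds was tested as an interaction, at doses that differ (50 and 500 nM). The median interaction over the list was 0.06 (all genes 0.00174), with 26 of 37 genes above 0, and -0.08 without apical agonist replicate 4. Irf1 (-0.18 ± 0.10), Ifi35 (0.22 ± 0.13) and Cmpk2 (0.76 ± 0.44) had the smallest p, each at a limma adjusted p of 1.00. No gene of the list or of all genes (0%) was called, and 0 of 37 had an unadjusted p under 0.05, against 1.49% of all.

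The last comparison set basal S1P against the mean of the 3 treatments described as tightening. Of the 37 genes 34 were lower with basal S1P, with a median of -0.15 (all genes 0.00342). Irf1 differed by -0.20 ± 0.06 (95% interval -0.32 to -0.09, limma adjusted p = 0.344), Iigp1 by -0.54 ± 0.17 (limma adjusted p = 0.545) and Zbp1 by -0.87 ± 0.37 (limma adjusted p = 0.835). These 3 were the genes of the list with an unadjusted p under 0.05, against 5.63% of all genes, and none was called, against 6 of all genes, or 0.049%. In Irf1 the group means stood in the order vehicle 510, apical agonist 504, apical S1P 499, basal agonist 496 and basal S1P 434, and the SDs of the first 4, 22.4 to 38.0, exceed the gaps between them. Without basal S1P replicate 2 the median of the list was -0.08 in place of -0.15.

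Other genes of the pathway, from a list set beside the 38, were counted in the same fit. The 9 interferon genes listed were not analysed here. The receptor and kinase genes Ifnar1, Ifnar2, Ifngr1, Ifngr2, Il10rb, Jak1, Jak2 and Tyk2 were all tested, and Jak1, the kinase shared by the receptors of both interferon types, had a mean of 1519 normalized counts. Irf8, a factor best known in myeloid cells, had a mean of 142, and Socs1, the inhibitor that gamma interferon induces, had 15.6. In all, 57 such genes were tested, and 0 were called by limma in any of the 8 comparisons, the smallest adjusted p being 0.747.

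Genes of the further induced group stood on the same side of vehicle as the 38. With basal S1P 26 of 30 were lower than vehicle, with a median of -0.16, while sensing genes were split, with 4 of 9 lower and a median of 0.01. Over all 57, basal S1P gave 42 lower and a median of -0.10, and apical S1P 43 lower and a median of -0.08. Basal agonist gave 39 lower and a median of -0.03, while apical agonist gave 37 higher and a median of 0.03. At an unadjusted p under 0.05 there were 3 of 57 with basal S1P against 5.22% of all genes, a share near the background. These were lower: Sp100, a protein of nuclear bodies (-0.25 ± 0.12), Tor3a (-0.19 ± 0.08) and Ifi203, a relative of DNA sensors (-0.60 ± 0.26), each at a limma adjusted p of 0.756. Apical agonist had 1 of 57, against 1.09% of all genes: Il10rb, a chain of the lambda interferon receptor (0.21 ± 0.08, limma adjusted p = 1.00). Basal against apical S1P had 1 of 57 at an unadjusted limma p under 0.05, against 4.01% of all genes. Pml, the scaffold of nuclear bodies, was lower there by -0.18 ± 0.08 (limma adjusted p = 0.999). Basal against apical agonist had 1 of 57, against 0.498% of all genes. Basal S1P against the 3 other treatments had 5 of 57, all lower, against 5.63% of all genes.

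The libraries labelled knockout were normalized apart from the wild type and counted on other gene models, so their values stand alone and were not tested against wild type. Irf1 read 1198, 1279, 1315 and 1294 normalized counts in replicates 1 to 4. Rnf213 read 5119, 5080, 3301 and 3548, and Rsad2 read 301, 298, 239 and 358. Irf7, at 174, 182, 199 and 405, and Ifi44, at 300, 283, 326 and 474, were highest in replicate 4. Ifitm3 read 4937, 5267, 6969 and 6864, at 8863 per exonic kilobase the highest of the list there too. Zbp1 (13 to 31), Mx2 (4 to 19) and Mx1 (0 to 1) were low there, as in the wild type.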

How the data were processed

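Libraries were made from 100 ng of RNA with a stranded mRNA kit, per the labels' protocols. Tools listed without role or order in the submitters' processing notes are STAR 2.7.3a, featureCounts 1.6.5 with Subread, DESeq2 1.26.0, Trimmomatic 0.38 and FastQC, and the build is mm10. The deposited values are whole-number normalized signal per gene, called normalized counts by the authors. How they were normalized is not stated, and the highest wild-type levels look capped. Log2 differences of abundant genes may therefore be compressed, which was not tested. The unscaled depth is unknown, so no count model was used and no counting interval is given. Gene starts and ends matched GENCODE M21 for 99.1% of wild-type genes and 72.6% of genes in the table labelled knockout.

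Values were tested as log2(value + 1) with limma 3.58.1 (trended empirical Bayes, R 4.3.3), on genes whose mean over 20 wild-type libraries reached 10, with all 5 groups in 1 fit and Benjamini-Hochberg adjustment over 12249 genes at 0.05. The members and lists were chosen with earlier results of these data known. Values in every library are given for the 2 genes of each role with the highest mean and for the 3 with the smallest p in each of 8 comparisons, 22 in all, and the other members by mean and range. Promoters were to be printed for up to 6 of these with a motif and 1 without; 3 stretches with over 30 exonic bases (Samhd1, Irgm1 and Ifit1) were left out. Groups came from the labels. Alternatives were a pseudocount of 10, no filter, a mean of at least 50, 2 rescalings, a replicate block, each library left out and the 4 libraries with differing Xist left out.

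Whether replicate numbers pair libraries was checked by correlating the deviations of same-numbered libraries from their group means over all genes tested. In the comparisons of vehicle with apical agonist, basal agonist and apical S1P, and of both agonist sides, every same-numbered pair exceeded 0.1. Numbers were taken to pair those libraries, and the block changed no call there. The standard errors, intervals and unadjusted p-values given for those comparisons are still from the fit without the block. They therefore include the spread between replicate numbers, which took a median of 42.9% of the variance over all genes. A correlation above 0.1 does not show that single libraries shared mice. Vehicle replicate 2 correlated best with apical agonist replicate 1 (own number 0.43), and vehicle replicate 3 with apical S1P replicate 4 (own number 0.38). Apical agonist 2 and apical S1P 3 and 4 also differed from their number in Xist, so pairing of these libraries stays uncertain. Numbers were not taken to pair libraries in comparisons with basal S1P, since 4 of 40 pairs, all with basal S1P, fell below 0.1. The lowest was -0.345, and between vehicle and basal S1P only the replicate 2 pair fell below 0.1.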

Additional observations from a re-analysis of the deposited data

Results flagged for a closer look

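In 6 of the 115 groups of 4 libraries examined for the genes given in full and for the median level, 1 library stood far from the other 3 by Dixon's gap test at 95%. Chance would give 5% in independent groups. These groups share libraries and genes that vary together, so their rate cannot be judged against that 5%. In vehicle, Mx2 was low at 8 in replicate 3, and Igtp was high at 258 in replicate 4. In apical agonist, replicate 4 was high for Cmpk2 at 387, for Igtp at 342 and for Irgm1 at 584. In basal agonist, Zbp1 was high at 37 in replicate 2. The apical agonist values belong to the library that was highest for 29 of the 37 genes.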

How the results depend on the processing

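Over the alternatives, 143 of 144 counts of called genes of the list and 428 of 429 values of single named genes stayed on their side of the threshold. The median difference of the list took the opposite sign in 7 of 144 alternatives, each with 1 library left out: 1 each for apical agonist, basal agonist, the sides for S1P and the sides for the agonist, and 3 for the interaction (-0.08, -0.04 and -0.01). The exception among the counts and the named genes was the replicate block, in comparisons where the numbers could not be shown to pair libraries: with basal S1P against the 3 other treatments 1 gene was called, Iigp1 at -0.54 (limma adjusted p = 0.0204, range over its alternatives 0.0204 to 1.00). With the block, calls over all genes were 47, 83, 137 and 2 for basal S1P against vehicle, against apical S1P, against the 3 others and for the interaction, in place of 3, 3, 6 and 0. Of 40 same-numbered library pairs 36 correlated above 0.1, and 30 times a library correlated best with its own number. The block changed no other call in the list. Leaving out 1 library at a time left 0 genes of the list called in every comparison. The median difference of the list then ran from -0.06 to 0.17 for apical agonist, -0.10 to 0.01 for basal agonist, -0.24 to -0.08 for apical S1P and -0.29 to -0.13 for basal S1P against vehicle. It ran from -0.13 to 0.03 between the sides for S1P, -0.24 to 0.01 for the agonist, -0.22 to -0.08 for basal S1P against the 3 others and -0.08 to 0.19 for the interaction. Without the 4 libraries whose Xist differed, the median was 0.14 for apical agonist and -0.13 for basal S1P against vehicle, -0.08 between the sides for S1P and -0.16 between the sides for the agonist, and calls over all genes between the sides for S1P were 0 in place of 3. The unfiltered table tested all 38 genes and a mean of at least 50 tested 35. The unscaled depth behind the values is unknown.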
